A study of Mus musculus with 12 samples.

Results

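Untreated islets of mice labelled as Ptpn2 knockouts were compared with untreated control islets, gene by gene. The comparison used 6 of the 12 RNA-seq libraries of the study, the 3 untreated libraries of each genotype, and the 19800 of 55536 genes that passed a filter on low counts over all 4 groups. The mice were 16 weeks old and on a mixed C57BL/6J strain background. The knockout group has the genotype label PTPN2 -/- and is called Ptpn2-bKO in the protocols, where the b is taken to stand for beta cell. The controls have the genotype label PTPN2 fl/fl and are written +/+ in the sample titles. The other 6 libraries hold islets of both genotypes that had IFN-gamma, TNF-alpha and IL-1beta in their medium for 24 h. They share the estimate of the spread between libraries and give a second reading of the genotype difference. The Cre driver, the Cre status of the controls and the identity of the floxed exon were not given in the sources used here. Labels name 3 mice of each genotype for 6 libraries, so libraries of a genotype share mice, and p-values measure only the spread between these libraries.

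Ptpn2 encodes a tyrosine phosphatase that takes phosphate off Janus kinases and STAT transcription factors and so ends signals of interferons and of the interleukin-6 family. Within a pancreatic islet, a cluster of hormone cells in which insulin-making beta cells are the most numerous, those signals are low until immune cells arrive. In liver, interleukin-6 acting through STAT3 switches on acute phase genes, among them those for the fibrinogen chains and for serine protease inhibitors of the serpin A3 family.

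Counts of the 6 untreated libraries ran from 54460375 to 77582270. Ins1 and Ins2 together took 12.2% to 13.3% of them, so the RNA of every library was rich in beta cell transcripts. On the first principal component of the 6 libraries, with 32.1% of the variance, the controls lay between -22 and -14.3 and the knockout-labelled libraries between 12.6 and 24.9. Ptpn2 itself stood at 30.3, 31.5 and 31.4 CPM (counts relative to the scaled library size) in the controls and at 36.7, 33.8 and 35.5 CPM in the islets labelled bKO. It was not lower under the knockout label, with a log2 difference of 0.19 (SE 0.098, adjusted p = 0.989). Whole-gene counts do not test the loss of an exon, and the other islet cells should still carry Ptpn2, so the genotype is written as a label.

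Of the 19800 genes, 15 were higher in the islets labelled bKO and 0 were lower at adjusted p under 0.05, which is 0.0758% of all genes tested (edgeR quasi-likelihood test, Benjamini-Hochberg adjustment over all genes, fit over 12 libraries). At an unadjusted p under 0.05 there were 599 higher genes (3.03%) and 500 lower genes (2.53%). In order of p, the called genes were Slc35f2, Serpina3n, Fga, Col6a4, Pomc, Nrcam, Fgb, Gm36855, Il18r1, Fgg, Gal, Acpp, Rasgrp1, Mtmr10 and Serpina3i. The groups did not overlap for any of the 15, a property that 8.24% of all tested genes had in that direction. The differences of 14 of them exceeded 2-fold, and Mtmr10 was the exception. Adjusted p was 0.0147 for the last gene called and 0.0523 for the first gene not called. The median difference over all genes was -0.0075 on the log2 scale, and for 93.2% of the 14653 genes with a mean of at least 1 CPM the 95% interval of the difference lay within 2-fold either way.

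The number of calls depended on which libraries set the spread. A fit of the 6 untreated libraries alone called 91 genes higher (0.46%) and 31 lower (0.157%), and the 15 genes were all among the 91. The biological coefficient of variation was 10.4% in the 6 untreated libraries, 21.3% in the 6 cytokine-treated ones and 16.8% over all 12. DESeq2 over 12 libraries called 92 genes higher and 36 lower, and 53 higher and 12 lower genes were called both there and in the fit of 6 libraries. On simulated counts of this comparison, 5 of 159 calls of the 12-library fit were false and 15 of 173 of the 6-library fit. The simulated treated libraries had the spread of the 12-library fit and not their own larger one, and shared mice were not simulated. These shares therefore do not say how the fits compare on the real counts.

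**Figure D1:**
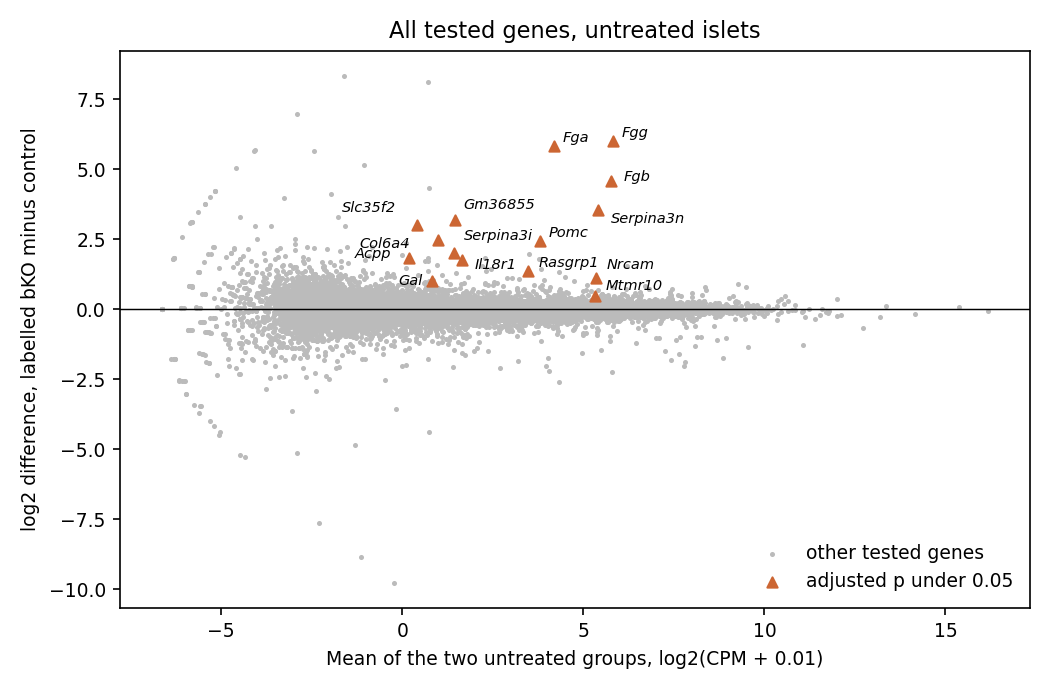
Log2 difference between the untreated islets labelled bKO and the untreated controls (vertical axis) against the mean level of both groups on a log2(CPM + 0.01) scale (horizontal axis), 1 point per tested gene. The 15 named triangles are the genes at adjusted p under 0.05, and all 15 lie above 0.

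The fibrinogen chain genes form a cluster on chromosome 3 and had the largest differences among the called genes. Fgg (GRCm38, chromosome 3, 83007724 to 83015049) lies 11.03 kb from Fga (83026076 to 83033627), and Fga lies 6.514 kb from Fgb (83040141 to 83049863). Serpina3i and Serpina3n lie 137.4 kb apart on chromosome 12 (104263122 to 104269372 and 104406729 to 104414329). Within each cluster these called genes were neighbours among the tested genes and were higher together. Their promoters are therefore shown, taken from RefSeq on GRCm38.p6 for the 250 bases before each start. The Fga stretch stops at the start of the GENCODE gene and holds 173 bases. Capitals mark matches, on either strand, to the STAT motif TTCNNNGAA, the interleukin-6 response element core CTGGGAA, the C/EBP motif TTGCNNAA and the HNF1 motif GTTAAT.
Fgg (chr3:83007474-83007723, plus strand): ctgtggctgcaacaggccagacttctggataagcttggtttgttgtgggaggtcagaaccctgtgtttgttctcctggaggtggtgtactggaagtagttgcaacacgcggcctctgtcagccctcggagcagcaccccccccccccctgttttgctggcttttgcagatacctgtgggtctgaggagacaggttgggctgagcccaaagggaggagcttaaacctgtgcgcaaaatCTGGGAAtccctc
Fga (chr3:83025903-83026075, plus strand): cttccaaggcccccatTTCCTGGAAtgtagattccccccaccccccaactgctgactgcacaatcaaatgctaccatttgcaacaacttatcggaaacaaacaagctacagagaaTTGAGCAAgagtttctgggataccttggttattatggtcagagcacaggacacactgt
Fgb (chr3:83049864-83050113, minus strand): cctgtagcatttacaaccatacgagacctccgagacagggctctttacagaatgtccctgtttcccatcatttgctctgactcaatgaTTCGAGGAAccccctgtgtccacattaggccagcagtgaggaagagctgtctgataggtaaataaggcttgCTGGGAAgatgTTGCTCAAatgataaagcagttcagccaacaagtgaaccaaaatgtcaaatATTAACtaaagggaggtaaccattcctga
Serpina3n (chr12:104406458-104406707, plus strand): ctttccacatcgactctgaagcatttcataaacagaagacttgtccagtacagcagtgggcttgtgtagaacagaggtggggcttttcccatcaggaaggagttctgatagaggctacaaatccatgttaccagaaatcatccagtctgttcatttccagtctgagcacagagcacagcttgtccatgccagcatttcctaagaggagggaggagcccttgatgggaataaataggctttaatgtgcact
Serpina3i (chr12:104262872-104263121, plus strand): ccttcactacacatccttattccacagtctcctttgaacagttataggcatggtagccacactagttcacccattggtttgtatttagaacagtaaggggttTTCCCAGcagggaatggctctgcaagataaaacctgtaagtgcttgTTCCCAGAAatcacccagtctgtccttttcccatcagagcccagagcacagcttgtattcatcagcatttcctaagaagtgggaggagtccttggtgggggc

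The Fgb stretch holds a match to each of the STAT, interleukin-6 core, C/EBP and HNF1 motifs. The Fga stretch holds a STAT and a C/EBP match, and an HNF1 match lies nearer the start, 43 to 38 bases before it and outside the printed part. In Fgg the core CTGGGAA ends 7 bases before the start. Serpina3i holds a core match on the opposite strand and, nearer the start, a STAT match that overlaps a second one, while none of these letters stand in the Serpina3n window. Over all 15 called genes, each of which had a promoter in the RefSeq table, STAT matches were found in 5 (Fga, Fgb, Il18r1, Rasgrp1 and Serpina3i) and the interleukin-6 core in 6 (Col6a4, Fgb, Il18r1, Fgg, Gal and Serpina3i). Among all 32851 promoters of the table, 7.02% hold a STAT match, 9.1% the core, 9.56% a C/EBP match and 6.43% an HNF1 match in the same window. These shares are per promoter, while a called gene counts if any of its starts has a match. Il18r1 has 3 starts, with matches before only the last, and Gm36855 has 2. A TATA box, TATAAA, was also searched and stood only before Pomc among the 15, against 12.4% of all promoters. These are letter matches and not measured binding.

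Fibrinogen is a clotting protein built from an alpha, a beta and a gamma chain and secreted mainly by liver. Fgg, the gamma chain gene, stood at 0.63, 3.47 and 1.158 CPM in the controls and at 135, 125 and 71.4 CPM in the islets labelled bKO. Fga, the alpha chain gene, stood at 0.27, 1.22 and 0.44 CPM in the controls and at 47.7, 39.3 and 21.2 CPM under the bKO label. Fgb, the beta chain gene, stood at 2.49, 6.29 and 4.24 CPM in the controls and at 120.5, 124 and 65.9 CPM under the bKO label. For each chain the lowest knockout-labelled library, replicate 3, was still above the highest control library, by 20.6-fold for Fgg, 17.3-fold for Fga and 10.5-fold for Fgb. Replicate 1 was the lowest control for all of them. The log2 differences were 6.01 for Fgg (SE 0.64, adjusted p = 0.0019), 5.85 for Fga (SE 0.57, adjusted p = 0.00186) and 4.58 for Fgb (SE 0.47, adjusted p = 0.00186). With limma-voom Fga just missed the threshold (adjusted p = 0.0525).

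Per kb of exon, Fgg was the most abundant chain in all 3 untreated knockout-labelled libraries, at 64.4, 59.9 and 34.1 CPM per kb. Fgb followed at 31.6, 32.6 and 17.3 CPM per kb and Fga at 15.8, 13.1 and 7.04 CPM per kb. The length used counts every annotated exon base of a gene, 2093 for Fgg, 3810 for Fgb and 3010 for Fga. Transcripts made in islets may be shorter. In CPM, Fgg and Fgb were close to each other, so the lead of Fgg per kb rests largely on these lengths. With cytokines the control islets held the chains in another order, with Fgb at 10.1, 20.2 and 12 CPM per kb, Fga at 7.3, 13.6 and 7.52, and Fgg lowest at 5.17, 12 and 6.9. Every untreated knockout-labelled library thus held more Fgg RNA than any cytokine-treated control library. The genes beside the cluster were not called. Plrg1, a splicing factor gene 5.66 kb beyond Fgb, was at 35.1 CPM in controls and 36.7 CPM under the bKO label (log2 0.07, SE 0.055). On the other side, Lrat and Rbm46 were below 1 CPM in both groups.

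**Figure D2:**
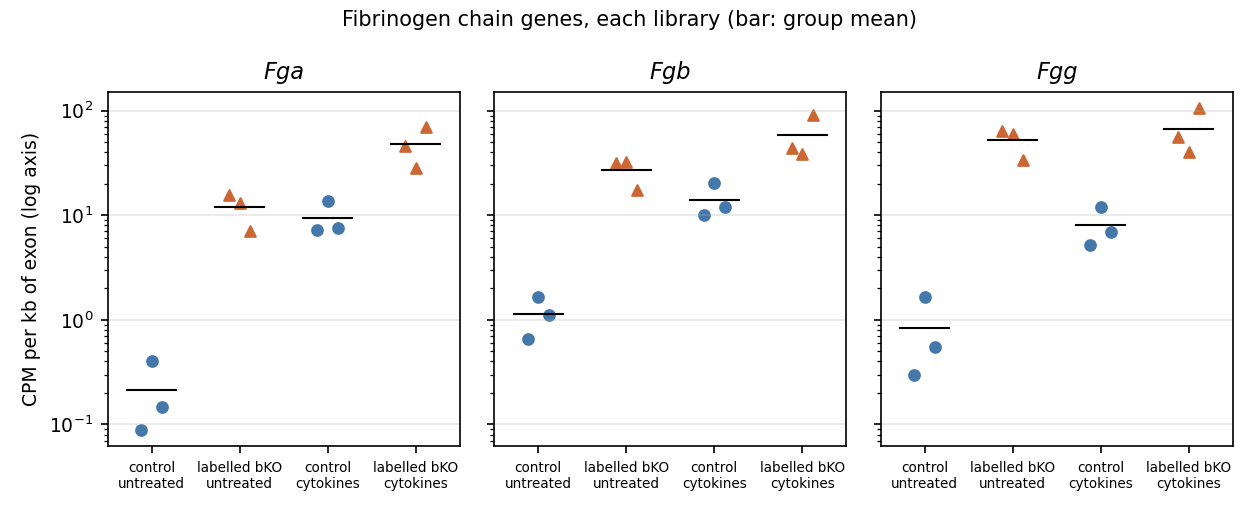
Levels of Fga, Fgb and Fgg in CPM per kb of exon on a log axis, 1 point per library, for the 4 groups of 3 libraries each. Circles are controls, triangles are islets labelled bKO and bars are group means. The 3 untreated knockout-labelled libraries sit at 34.1 to 64.4 for Fgg, above the 5.17 to 12 of cytokine-treated controls.

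The serpin A3 family holds secreted inhibitors of serine proteases. Serpina3n, an acute phase member also made in brain, stood at 3.76, 7.21 and 9.03 CPM in the controls and at 73.5, 86.7 and 74.1 CPM under the bKO label. The difference was log2 3.54 (SE 0.33, adjusted p = 0.00186). Serpina3i was less abundant, at 0.53, 1.02 and 1.56 CPM in the controls against 4.15, 4.49 and 4.29 CPM (log2 2.03, SE 0.28, adjusted p = 0.0147). In both genes the 3 knockout-labelled libraries lay close together while the controls spread more than 2-fold, with replicate 1 lowest. The family members on the other side of Serpina3i, Serpina3f, Serpina3g and Serpina3h, were under 0.1 CPM on average in both groups and were not called. Reads of these near copies are hard to assign, so the split of counts between family members is uncertain. Without control replicate 2, or without any 1 of the knockout-labelled libraries, Serpina3i was no longer called, and its adjusted p over all alternatives ran up to 0.0958.

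None of the other listed acute phase genes passed in the fit of 12 libraries. Of 37 listed acute phase genes 33 were tested, 5 were called higher (15.2%, against 0.0758% of all genes) and 0 lower, and the 5 are those given above. The median of the list was 0.46 against -0.0075 for all genes. Without overlap, 10 members were higher, the 5 included, and 1 lower, against 8.24% and 7.94% of all genes. At an unadjusted p under 0.05, 8 were higher and 0 lower, against 3.03% and 2.53%. Steap4, higher without overlap, was at 1.72, 3.52 and 3.42 CPM in controls and 5.09, 3.88 and 4.91 CPM under the bKO label. Lrg1, a secreted glycoprotein gene that interleukin-6 raises in liver, had 24 CPM (SD 8.2, n = 3) in controls and 44.3 CPM (SD 15.5) under the bKO label, and its groups overlapped (log2 0.88, adjusted p = 0.663). Lcn2, an iron carrier of inflamed tissue, had 161 CPM (SD 45.5) and 130 CPM (SD 15), with a difference of -0.32 (adjusted p = 1). Fgl1, a secreted fibrinogen-like protein gene, was at 0.46 (SE 0.13, adjusted p = 0.494). The list was put together with earlier results of these data known, so its counts are not independent evidence of a direction.

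Markers of hepatocytes, the main source of fibrinogen, were set beside these genes. Their summed level was 325 to 405 CPM in the controls and 248 to 320 CPM under the bKO label, most of it from Ttr, which islet alpha cells also make. Albumin, Alb, was at 0.88 CPM (SD 0.040, n = 3) in the controls and 0.42 CPM (SD 0.11) under the bKO label. Cps1, Cyp2e1 and Cyp3a11, a urea cycle enzyme and drug-metabolising cytochromes, had 0 counts in all 6 libraries. Of 28 hepatocyte markers 17 were tested and 0 were called, against 0.0758% of all genes. Of the tested ones 9 lay on the higher side and 8 on the lower, with a median log2 difference of 0.014. Alb was the lowest of them at -1.067, and Fgl1, given above, was the highest at 0.457.

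Pomc and Gal encode neuropeptide precursors. Pomc, the precursor of corticotropin, melanocortins and beta-endorphin (chromosome 12, 3954951 to 3960642), stood at 4.12, 4.61 and 4.25 CPM in the controls and at 21.9, 20.6 and 28.1 CPM under the bKO label. The difference was log2 2.44 (SE 0.25, adjusted p = 0.00186), and the controls were nearly level with each other. Gal, the gene for galanin, a peptide that restrains insulin release (chromosome 19, 3409915 to 3414544), stood at 1.08, 1.14 and 1.22 CPM against 2.42, 2.49 and 2.15 CPM (log2 1.04, SE 0.12, adjusted p = 0.00417, and 0.106 with limma-voom). Of 26 tested neuropeptide and minor hormone genes these 2 were called (7.69%, against 0.0758% of all genes), 8 were higher without overlap (30.8%, against 8.24%), and the median of the list was 0.02. Npy, for neuropeptide Y, was at 4.75, 5.77 and 5.11 CPM against 8.2, 7.75 and 8.37 CPM. Its groups did not overlap, but it did not pass in the fit of 12 libraries (log2 0.64, SE 0.15, adjusted p = 0.284) and did in the fit of 6 (adjusted p = 0.0345).

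Nrcam encodes a neuronal cell adhesion molecule of the immunoglobulin superfamily (chromosome 12, 44328885 to 44601964). It stood at 23.4, 26.1 and 27.2 CPM in the controls and at 56.8, 57.6 and 53.6 CPM in the islets labelled bKO, with little spread inside either group (log2 1.13, SE 0.12, adjusted p = 0.00186). It was the only called gene of 25 tested neural adhesion genes (4%, against 0.0758% of all genes). Chl1, a close relative of L1, was at 9.88, 9.34 and 10 CPM against 20, 22.4 and 18.8 CPM, again without overlap. Its difference of 1.06 (SE 0.25) had an adjusted p of 0.27 in the fit of 12 libraries and 0.00115 in the fit of 6.

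Il18r1, the binding chain of the interleukin-18 receptor (chromosome 1, 40465552 to 40500854), stood at 1.07, 1.32 and 1.85 CPM in the controls and at 4.74, 5.12 and 4.6 CPM under the bKO label. The difference was log2 1.76 (SE 0.19, adjusted p = 0.0019). Its neighbours in the interleukin-1 receptor cluster were not called: Il1rl1 was at -0.27 (SE 0.49) and Il18rap, the second chain of the same receptor, at 0.53 (SE 0.45). Il6st, the shared receptor chain of the interleukin-6 family, was at 164 CPM (SD 5.3, n = 3) and 171 CPM (SD 10), a log2 difference of 0.06. Il6ra, the interleukin-6 receptor gene, had 112 CPM (SD 7.8) and 96.6 CPM (SD 1.3), and its -0.22 did not pass (adjusted p = 0.853). The list of cytokine receptors did not include Il18r1, and 0 of its 29 tested genes were called, against 0.0758% of all genes. Il11ra1, the interleukin-11 receptor, was called in the fit of 6 libraries, at log2 0.71 (SE 0.084, adjusted p = 0.0114). It did not pass in the fit of 12 libraries (adjusted p = 0.64) or with DESeq2 (adjusted p = 0.277).

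Rasgrp1 and Mtmr10 encode signalling proteins inside the cell. Rasgrp1, an exchange factor that loads Ras with GTP in answer to diacylglycerol (chromosome 2, 117279993 to 117343001), stood at 5.04, 6.3 and 7.23 CPM in the controls and at 17.7, 15.8 and 14.1 CPM under the bKO label (log2 1.36, SE 0.17, adjusted p = 0.00998). Mtmr10, of the myotubularin family of phosphoinositide phosphatases (chromosome 7, 64287653 to 64340806), stood at 33.7, 33.2 and 33.7 CPM against 46.7, 45.8 and 48.3 CPM. Its difference was the smallest of the 15, log2 0.48 (SE 0.065, adjusted p = 0.014). Rasgrp1 lost its call without control replicate 1 or 2 and without knockout-labelled replicate 1 or 2, and Mtmr10 without any 1 library, with adjusted p up to 0.0694 and 0.11. Next to Mtmr10, 17.9 kb away, lies Trpm1, a cation channel gene, at 2.92 CPM (SD 0.56, n = 3) and 7.97 CPM (SD 0.68), log2 1.45 (SE 0.26, adjusted p = 0.089). The other 13 myotubularin genes and 17 Ras exchange and GTPase-activating factors were not called.

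The remaining called genes were low in islets. Slc35f2, a solute carrier of the nucleotide-sugar transporter family (chromosome 9, 53771538 to 53818154), had the smallest p of all. It stood at 0.3, 0.28 and 0.27 CPM in the controls and at 2.13, 2.42 and 2.46 CPM under the bKO label (log2 3.02, SE 0.28, adjusted p = 0.00186). Col6a4, a collagen VI chain of the extracellular matrix (chromosome 9, 105989454 to 106096783), stood at 0.6, 0.44 and 0.75 CPM against 3.09, 3.44 and 3.61 CPM (log2 2.49, SE 0.25, adjusted p = 0.00186). The lowest knockout-labelled library of each gene was far above its highest control. The genes beside Col6a4, Col6a5 and Col6a6 of the same collagen, were at -0.04 (SE 0.44) and -0.11 (SE 0.20).

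Acpp, an acid phosphatase first known from prostate that also acts as an ectonucleotidase (chromosome 9, 104288251 to 104337748), stood at 0.47, 0.39 and 0.61 CPM in the controls and at 2.02, 1.76 and 1.49 CPM under the bKO label (log2 1.83, SE 0.22, adjusted p = 0.00566). It lost its call with limma-voom (adjusted p = 0.0944) and without control replicate 1 (adjusted p = 0.0539). The long intergenic RNA gene Gm36855 (chromosome 9, 43506551 to 43521004) stood at 0.36, 0.65 and 0.6 CPM against 6.29, 5.37 and 3.23 CPM (log2 3.2, SE 0.33, adjusted p = 0.00186). Replicate 3 was the lowest knockout-labelled library for both genes, as for the fibrinogen chains. No pair of called genes outside the fibrinogen and Serpina3 clusters lay closer than the 1652 kb between Acpp and Col6a4. Rab39, 65.3 kb from Slc35f2, was at 2.34 CPM (SD 0.25, n = 3) and 6.82 CPM (SD 1.7), log2 1.54 (SE 0.25, adjusted p = 0.0583).

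**Figure D3:**
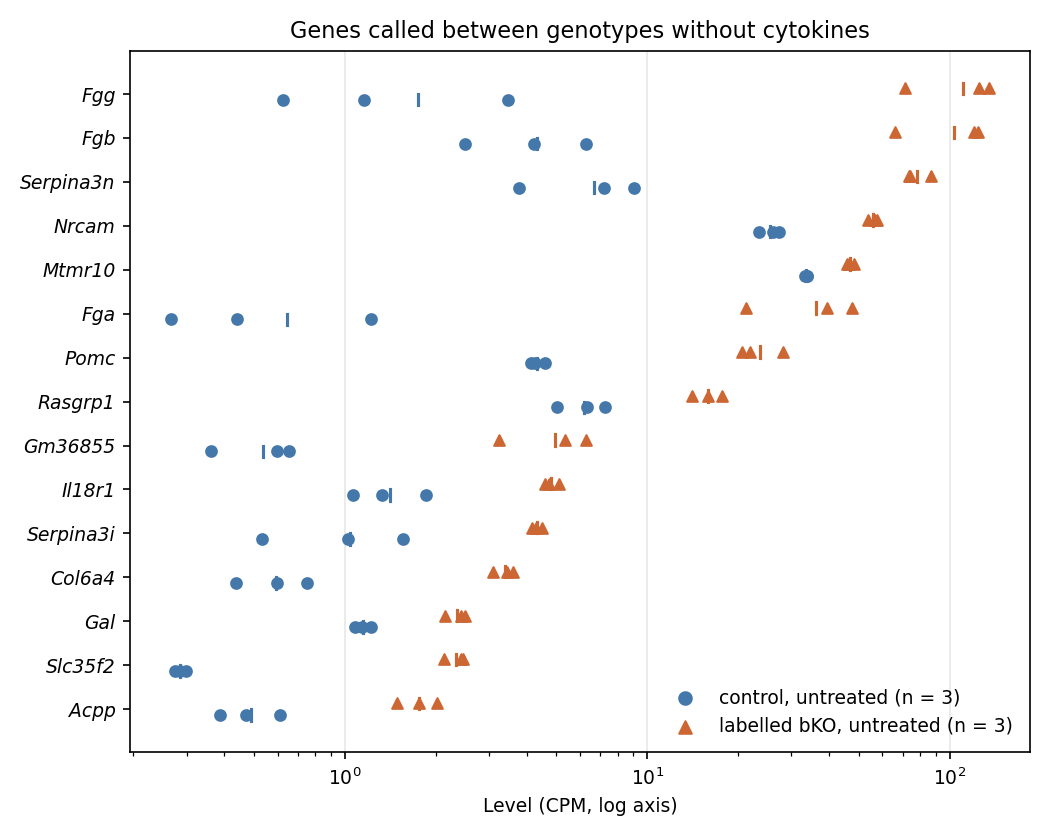
Level in CPM on a log axis (horizontal) of the 15 genes at adjusted p under 0.05 (vertical), 1 point per library. Circles are the 3 untreated controls, triangles the 3 untreated islets labelled bKO, and short bars the group means. In no gene do the circles and triangles overlap, and in Mtmr10 they come closest, at 33.7 against 45.8 CPM.

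The same 15 genes were read in the 6 cytokine-treated libraries, whose levels the untreated contrast does not use. These libraries did enter the estimate of the spread by which the 15 were called. They may also share mice with the untreated ones, so they are not an independent set of samples. Of all genes 28 were higher there in islets labelled bKO (0.141%) and 18 lower (0.0909%), and 4 of the 15 were among the higher ones. These were Slc35f2 (log2 2.21, SE 0.27, adjusted p = 0.00998), Col6a4 (2.14, SE 0.25, adjusted p = 0.0098), Pomc (3.04, SE 0.26, adjusted p = 0.00171) and Fgg (3.06, SE 0.54, adjusted p = 0.0496). The difference was above 0 for 14 of the 15, and for 13 the treated groups did not overlap, a property of 6.94% of all tested genes. Serpina3i was at -0.045 (SE 0.24), with overlapping groups of 17.9, 17.9 and 17.3 CPM in treated controls and 19.2, 13.7 and 18.6 CPM in treated islets labelled bKO.

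Whether the genotype difference itself differed with cytokines was tested directly, and 0 of 19800 genes passed, with 2162 at an unadjusted p under 0.05 (10.9%) and adjusted p of 0.213 to 0.696 for the 15. DESeq2 called 100 genes higher and 86 lower in that test. For Fga the genotype differences differed by log2 -3.51 (SE 0.69, adjusted p = 0.246) and for Serpina3i by -2.07 (SE 0.37, adjusted p = 0.213). The 15 genes were chosen on the untreated difference, which is part of this contrast. Negative values are thereby favoured among them, and the direction is not read.

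The control islets' own response to cytokines is given for the same genes as levels, since that comparison shares the untreated controls. The untreated islets labelled bKO had a higher mean than cytokine-treated controls for 10 genes and a lower one for Serpina3n, Il18r1, Gal, Acpp and Serpina3i. Pomc shows the first kind, with 20.6 to 28.1 CPM in untreated islets labelled bKO and 3.35, 4.31 and 3.69 CPM in treated controls. Gal shows the second, with 2.15 to 2.49 CPM against 18.3, 15.6 and 17.8 CPM.

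**Figure D4:**
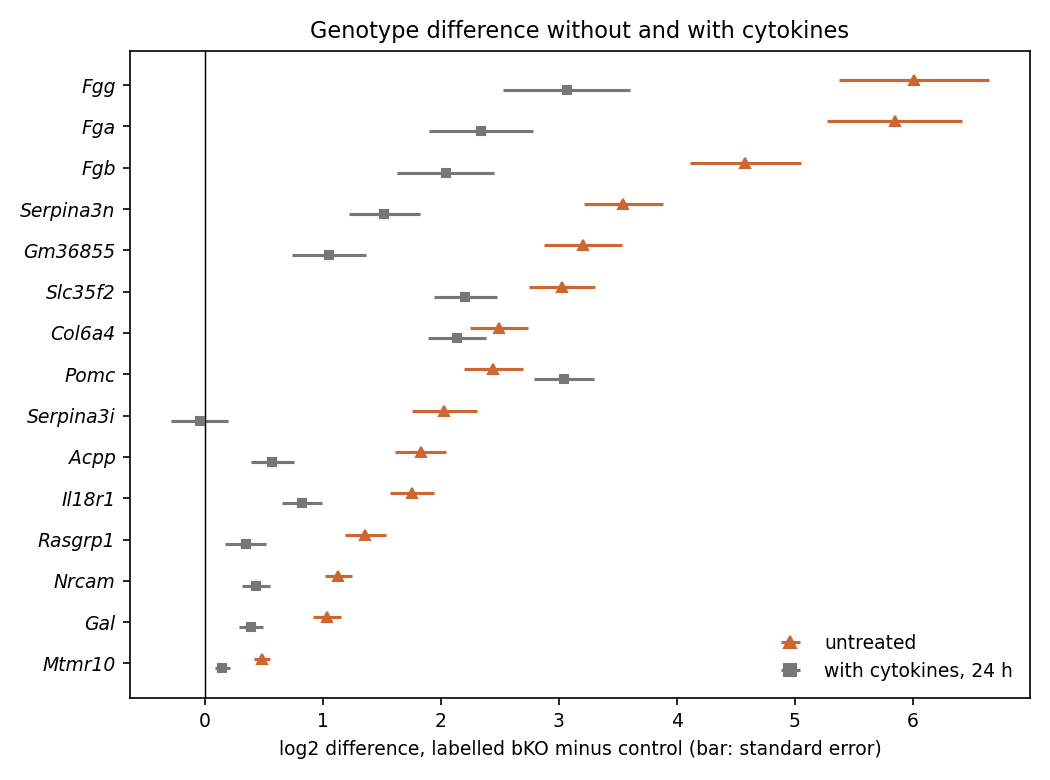
Log2 difference between islets labelled bKO and controls (horizontal axis, bars are standard errors) for the 15 called genes, without cytokines (triangles) and with cytokines for 24 h (squares), each from 3 against 3 libraries. The genes were chosen on the triangles, so a shift between triangles and squares is not read; the squares lie above 0 for 14 of the 15, and that of Serpina3i lies at -0.045.

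Of 29 JAK-STAT pathway genes tested 0 were called (against 0.0758% of all genes), and the median difference was 0.01. For 8 of them (27.6%, against 8.24% of all genes) the knockout-labelled libraries lay above every control, and for 0 below. Socs3, which STAT3 induces and which shuts interleukin-6 signals off, was at 69.9, 95.5 and 85.9 CPM in the controls and at 167, 129.9 and 119 CPM under the bKO label. Its groups did not overlap, but the difference of log2 0.73 (SE 0.16) did not pass (adjusted p = 0.251). Cebpd and Bcl6, other genes that STAT3 induces, were at 0.71 (SE 0.19, adjusted p = 0.372) and 0.44 (SE 0.11, adjusted p = 0.326). Cish, a target of STAT5, was at 0.16 (SE 0.12). Stat3 was at 454 CPM (SD 9.4, n = 3) and 522 CPM (SD 28), log2 0.20. The 30 STAT3 target genes had 0 calls (against 0.0758% of all genes) and a median of 0.12. At an unadjusted p under 0.05, 6 members lay on the higher side (20%, against 3.03% of all genes) and 6 on the lower side (20%, against 2.53%). The lower 6 include Reg1, Reg2, Reg3b and Reg3g. Acinar cells express these genes, and they are given below with the acinar markers.

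Interferon and antigen presentation genes had no call in either direction in the fit of 12 libraries, which called 0.0758% of all genes. Of 45 interferon targets 10 had an unadjusted p under 0.05 on the lower side (22.2%, against 2.53% of all genes) and 3 on the higher side (6.67%, against 3.03%), and the median was -0.02. Among the lower ones were Ifit1, an antiviral RNA-binding protein gene (log2 -0.63, adjusted p = 0.307), and Rsad2, for viperin (-0.75, adjusted p = 0.476). Gbp8, a guanylate-binding protein gene, was on the higher side without overlap, at 3.85 CPM (SD 0.88, n = 3) in controls and 7.65 CPM (SD 1.4) under the bKO label (log2 0.99, SE 0.17, adjusted p = 0.0677), and it passed with DESeq2. Of 23 class I antigen presentation genes 7 had such a p on the higher side (30.4%, against 3.03%), among them the peptide transporter gene Tap2 (0.30, SE 0.069, adjusted p = 0.27) and Nlrc5, the class I transactivator gene (0.67, SE 0.17, adjusted p = 0.349). Cxcl10 and Nos2, which cytokines raise in islets, stood at 1.89 and 0.29 CPM in controls and at 1.82 and 0.29 CPM under the bKO label. None of these genes passed in the fit of 12 libraries.

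Beta cell identity genes had 0 calls among 29 tested (against 0.0758% of all genes) and a median of -0.06. Of the 29, 5 were lower without overlap (17.2%, against 7.94% of all genes). Mafa, a factor of mature beta cells, was at 564.5, 416 and 424 CPM in the controls and at 245, 354 and 331 CPM under the bKO label, without overlap. Slc2a2, the glucose transporter of mouse beta cells, was at 348, 209 and 267.5 CPM against 111, 213 and 209 CPM, and its groups overlapped. Control replicate 1 was the highest and knockout-labelled replicate 1 the lowest library for both genes. Their differences were -0.60 (SE 0.25, adjusted p = 0.838) and -0.63 (SE 0.26, adjusted p = 0.818), and Slc30a8, the granule zinc transporter gene, was at -0.59 (SE 0.21, adjusted p = 0.672). Pdx1, Ins1, Ins2 and Iapp were at -0.17, 0.08, -0.06 and 0.12. For Ins1 the 95% interval ran from -0.36 to 0.52 and for Ins2 from -0.49 to 0.37. Gcg, Sst and Ppy, the hormone genes of alpha, delta and PP cells, were at -0.17, -0.01 and 0.17.

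Tryptophan hydroxylase makes serotonin, which beta cells store with insulin. Tph2 was at 3.9, 5.2 and 4.88 CPM in the controls and at 10.1, 9.83 and 10.7 CPM in the islets labelled bKO. The difference of log2 1.13 (SE 0.24) did not pass in the fit of 12 libraries (adjusted p = 0.226) and did in the fit of 6 (adjusted p = 0.00511). Tph1, the form that prolactin and STAT5 raise in pregnancy, was at -0.18 and not called.

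Metabolic and stress lists had 0 calls. With 0.0758% of all genes called, 0 calls in lists of this size say little. All 30 ER stress genes had intervals within 2-fold either way, the median was 0.12, and for 14 of them (46.7%, against 8.24% of all genes) the knockout-labelled libraries lay above every control. Of 54 nuclear oxidative phosphorylation genes all had intervals within 2-fold either way, with a median of 0.02. All 13 genes encoded in the mitochondrion were on the lower side, 6 of them without overlap (46.2%, against 7.94% of all genes), with a median of -0.30 and mt-Nd5, a complex I subunit gene, at -0.33 (adjusted p = 0.494). Mitochondrial RNA took 1.62% to 1.83% of the counts in controls and 1.43% to 1.48% under the bKO label. Of 31 fatty acid oxidation genes 10 were lower without overlap (32.3%, against 7.94%), and the median was -0.08. Glycolysis genes had a median of -0.13 over 29 genes, with Pfkp, a phosphofructokinase gene, at 0.42 (adjusted p = 0.667).

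**Figure D5:**
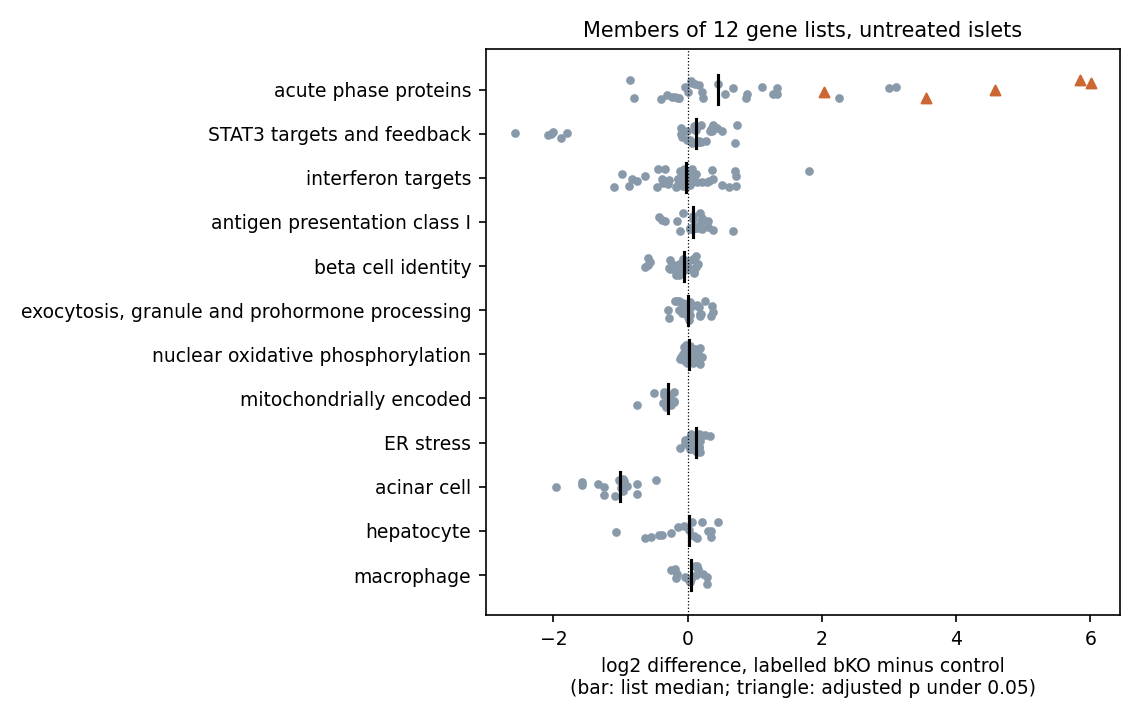
Log2 difference between untreated islets labelled bKO and untreated controls (horizontal axis) for the tested members of 12 gene lists (vertical axis), 1 point per gene, with a bar at each list's median. Triangles are genes at adjusted p under 0.05, of which the acute phase list holds 5 and the other lists 0. Acinar cell markers all lie below 0, with a median of -1.01.

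Markers of acinar cells, which make digestive enzymes and surround the islets, differed between the groups. Their summed level was 7810, 5380 and 8790 CPM in the controls and 4010, 2450 and 3490 CPM under the bKO label, a ratio of 0.453 (exact two-sided permutation p = 0.1, the smallest that 3 against 3 libraries allow). All 18 tested markers were on the lower side (median -1.01), 16 of them without overlap (88.9%, against 7.94% of all genes). In the fit of 12 libraries 0 were called, and in the fit of 6 libraries 4 were lower (22.2%, against 0.157% of all genes): Cela1, Ctrb1, Pnliprp1 and Spink1, all genes of digestive enzymes or their inhibitor. In bulk RNA, fewer cells of a type and less RNA per cell cannot be told apart.

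The regenerating-protein genes, which acinar cells express and which stand in the STAT3 list, were on the same side. Reg1 had 349.5 CPM (SD 138, n = 3) in controls and 94.6 CPM (SD 25) under the bKO label, and Reg3b had 352.5 CPM (SD 119) and 86 CPM (SD 28). Reg1, Reg2, Reg3b and Reg3g were lower in the fit of 6 libraries, at log2 -1.88 (adjusted p = 0.0345), -1.79 (0.0345), -2.03 (0.0207) and -2.001 (0.0163). They did not pass in the fit of 12 (adjusted p 0.523 to 0.665). The part of the acinar difference in these values was not tested. With acinar markers and the most abundant genes left out of the scaling, the 15 called genes were all called again, together with Sec22c. Macrophage markers overlapped, at 218 to 263 CPM and 210 to 284 CPM in sum, as did endothelial, ductal, stellate, T cell and B cell markers. Sums of mesothelial and adipocyte markers did not overlap, but each gap came from 1 gene. Krt19, a keratin that ductal cells also make, had 110.4 CPM (SD 9.5, n = 3) in controls and 70.3 CPM (SD 12.7) under the bKO label, while the mesothelial markers Msln and Wt1 overlapped. Fabp4, a fatty acid carrier, had 10.03 CPM (SD 0.94) and 11.8 CPM (SD 0.42), and the adipocyte markers Cfd and Lep had 0 counts.

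No gene passed on the lower side in the fit of 12 libraries, and Arhgap36 came nearest. Arhgap36, on the X chromosome, stood at 25.3, 24.8 and 31 CPM in the controls and at 6.21, 5.85 and 5.49 CPM under the bKO label. The difference was log2 -2.21 (SE 0.35, adjusted p = 0.0523). In the fit of 6 libraries it had the smallest p of all genes (log2 -2.20, SE 0.10, adjusted p = 1.11e-04). With cytokines its genotype difference was -0.35 (adjusted p = 0.581). Padi2, a peptidylarginine deiminase gene, and Cdk14, a cyclin-dependent kinase gene, followed at -0.96 (adjusted p = 0.0907) and -0.82 (adjusted p = 0.0921).

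On the higher side, the nearest genes that did not pass had values close to the threshold. Sec22c, of vesicle transport in the early secretory pathway, stood at 52.6, 55.6 and 54.2 CPM in the controls and at 81.4, 75.9 and 78.5 CPM under the bKO label (log2 0.54, SE 0.085, adjusted p = 0.0523). Tifa, an adaptor of NF-kB signalling, was at 11.4 CPM (SD 1.9, n = 3) and 28.5 CPM (SD 5.4), and Stom, for the membrane protein stomatin, at 13.8 CPM (SD 3.6) and 30.8 CPM (SD 4.4). Both also had adjusted p = 0.0523. Stom was called with cytokines as well, at log2 1.10 (adjusted p = 0.0373), as were Chl1 (1.69, adjusted p = 0.0334) and Npy (1.05, adjusted p = 0.0334). These 3 genes, named for that after their values were seen, passed in the treated libraries and, without cytokines, in the fit of 6 libraries and with DESeq2.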

How the data were processed

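The authors deposited raw counts, whole numbers for each gene, for 12 libraries of mouse islet total RNA. The submitters' processing notes name GRCm38, STAR 2.5.2a, featureCounts 1.6.2, cutadapt 1.16, FastQC 0.11.7 and DESeq2 1.30.0. Annotation release and strand setting were not given in the sources used here. Values of overlapping genes and close copies are therefore uncertain. Genes were kept by filterByExpr, scaled by TMM and compared in R 4.3.3 by the quasi-likelihood test of edgeR 4.0.16, with a coefficient for each of 4 groups and Benjamini-Hochberg adjustment at 0.05. Alternatives used DESeq2 1.42.0 and limma 3.58.1, other scalings, filters and thresholds, the 6 untreated libraries alone, a replicate block, and each untreated library left out. Libraries of a group differed beyond sampling noise (chi-square of 15 to 30.9 per degree of freedom), so none was counted as a copy.

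Named genes are all called genes, the 8 per direction nearest to a call with at least 5 CPM and no overlap, up to 3 members of each list by p, and 26 fixed genes; genes beside a called gene, the regenerating-protein genes and members of lists called in the fit of 6 libraries were added after their values were seen. Some genes that this rule names are not reported here. The comparison, the 32 gene lists, the 17 marker lists and the rule were chosen with earlier results of these data known. Positions are from GENCODE M21, which held all 55536 gene identifiers. On simulated counts of the untreated comparison over 19539 genes, the 12-library fit found 68.4% of 2-fold and 88.8% of 4-fold changes. The 6-library fit, over 18744 genes, found 73.5% and 93.5%. The simulated treated libraries had less spread than the real ones, and shared mice were not simulated. Shares found on the real counts may therefore differ.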

Additional observations from a re-analysis of the deposited data

How the results depend on the processing

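Counts of genes higher and lower without cytokines, 15 and 0 as reported, were 29 and 3 with no filter, 92 and 36 with DESeq2, 91 and 31 in the fit of 6 libraries, 31 and 3 at adjusted p under 0.1, and 19 and 1 with robust dispersions. Leaving out 1 library gave 12 to 17 higher and 0 to 3 lower, with 2 lower without knockout-labelled replicate 1 and 3 without replicate 3. With cytokines, 28 higher and 18 lower became 294 and 406 with DESeq2; the difference of the genotype differences, 0 and 0, became 100 and 86. The cause of these changes was not tested. Same-numbered untreated libraries of the 2 genotypes correlated at -0.175, 0.052 and -0.214 in their deviations, and differently numbered ones at -0.151 to 0.301. These values do not show pairing by number, and with 3 libraries a group they cannot exclude it. With a replicate block the counts were 12 and 0 over 12 libraries, 28 and 39 in the 6 alone, and 5 and 2 with cytokines. Col6a4, Fgb, Fgg, Gm36855, Il18r1, Nrcam, Pomc, Serpina3n and Slc35f2 were called under all 20 alternatives, Fga under 19 (adjusted p = 0.0525 with limma-voom), Gal under 18, Acpp under 17, Rasgrp1 under 15, Serpina3i under 13 and Mtmr10 under 12. Genes near 0 changed sign. Nos2 was 0.165 with limma-voom and 0.102 with a replicate block in 6 libraries; Sst was 0.008 with library totals. With 1 library left out Nos2 ran from -0.485 to 0.747, Cxcl10 from -0.348 to 0.141, Ppy from -0.023 to 0.322 and Sst from -0.08 to 0.045. Depth limits the genes under 1 CPM: 5 of the 15 were there in controls.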

Other observations

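Some genes far apart in mean between the groups did not pass. Igkv4-72, an immunoglobulin variable segment, averaged 1.69 CPM (SD 1.8, n = 3) in controls and 0 under the bKO label, with overlapping groups (adjusted p = 0.559). Gm9855, a predicted gene, averaged 0.011 CPM (SD 0.0094) in controls and 3.26 CPM (SD 2.8) under the bKO label without overlap (adjusted p = 0.756). Both were named after their values were seen.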
